A study of Mus musculus with 12 samples.

Results

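The cell cycle genes described here are 48 of the 18180 genes measured in sorted EGFR+ cells of mouse glioblastoma (GBM). They were chosen by gene symbol as known DNA replication and mitosis genes, 24 for S phase, when DNA is copied, and 24 for G2/M, when chromosomes are condensed and segregated. All 48 symbols were found, and every one was above a log2 CPM of 1 in each of the 12 libraries, so no member was lost to a filter on low values. Single symbols had from 28 reads (*Ung* in its lowest library) to 27249 reads (*Mki67* in its highest).

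EGFR+ cells of 4 populations were sorted from each of 3 end-stage tumors (T3, T4 and T5). Cell suspensions were stained for EGFR with either PDGFR or Galectin-1. The PDGFR stain was split into PDGFRA+ and PDGFRA- cells and the Galectin-1 stain into GAL1+ and GAL1- cells, giving 3 libraries per population. A sorted cell entered only the PDGFRA or the GAL1 sort, but cells of the same kind could fall in populations of both. All tumors arose in adult mice of a mixed background (C57Bl/6J, 129S4, FVBN/J and Balb/cJ in the labels, with SJL added in the study's methods) that carried a Cre-activated human EGFR transgene, lacked *Cdkn2a* in every cell and carried a Cre-activated luciferase reporter. A lentivirus with iCre, with or without TGFa, was injected into the striatum, so recombination was set by which cells the virus entered and not by a cell type promoter. The study's methods give age ranges for its mice as a whole. Which of these viruses started T3, T4 and T5, the age of the animals behind each of them, and whether a tumor came from a single animal are not given in the sources used here. Sorting followed cell surface staining, so the gates were set by protein and not by the messenger RNA measured. Values are log2 CPM, counts of reads scaled to the size of the library, in 1 library per tumor and population. Library depth, recovered from the smallest value in each library, ran from 9851175 to 24117541 reads.

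The messenger RNA of the gated proteins differed by the test between the GAL1 populations and not between the PDGFRA populations. The level of *Pdgfra* was 10.30 ± 0.45 log2 CPM (mean ± SD, n = 3) in PDGFRA+ and 8.70 ± 1.38 in PDGFRA- cells, with a log2 fold change of 1.60 (SE 0.41) that did not pass (limma adjusted p = 0.249). *Lgals1*, the Galectin-1 gene, was at 7.66 ± 0.27 in GAL1+ and 6.38 ± 0.39 in GAL1- cells and rose in GAL1+ cells by a log2 fold change of 1.29 (SE 0.22, limma adjusted p = 0.000967). The *Egfr* row was at 8.41 ± 0.68 in GAL1+ and 10.51 ± 0.12 in GAL1- cells, and how reads of the human transgene were assigned was not stated. The study's results describe the sorted cells as lacking CD45, yet its gene *Ptprc* was at 8.65 ± 0.40 in GAL1+ cells, at 6.92 ± 0.70 in PDGFRA+, at 7.46 ± 1.06 in PDGFRA- and at 4.60 ± 0.79 in GAL1- cells. Among the PDGFRA- libraries, that of T5 stood apart. The 12 pan-leukocyte genes summed to 3400 CPM there against 783 and 1270 CPM in T4 and T3, and the 10 oligodendrocyte precursor genes to 1630 CPM against 2960 and 4650 CPM. The number of members called in each comparison that uses this library is given with and without it.

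A dividing cell loads the MCM helicase onto DNA, fires origins, and copies its genome with polymerases held on the PCNA clamp while ribonucleotide reductase supplies deoxynucleotides. Transcripts for this machinery are driven by E2F factors at the end of G1. Cyclin A, cyclin B and CDK1 then take the cell into mitosis, and the spindle, the kinetochores and the anaphase-promoting complex separate the chromosomes. Many genes of this later wave carry a promoter element called the cell cycle genes homology region (CHR), bound by the DREAM complex in resting cells and by B-MYB and FOXM1 complexes in dividing ones. In glioblastoma, cycling cells have long been recognised by Ki-67, the product of *Mki67*. In bulk libraries fewer cycling cells and less of these transcripts per cycling cell cannot be told apart.

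The promoters of both groups were read from RefSeq windows (GRCm38.p6) of 300 bases, from 250 before to 50 after the annotated start, for the 42 of 48 members that matched. The CHR core TTTGAA, on either strand, was present in 15 of 21 G2/M promoters (71.4%) and in 3 of 21 S phase promoters (14.3%), against 20.2% of all 27025 genes in the promoter table and 15.1% of the 12222 measured genes that matched it. E2F sites, searched on both strands as TTTCCCGC, TTTCGCGC, TTTGCCGC or TTTGGCGC, showed the opposite distribution. They were found in 8 S phase promoters (38.1%) and 1 G2/M promoter, that of *Cdk1* (4.76%), against 2.6% of the promoter table and 4.41% of the matched measured genes. CCAAT boxes were present in 81.0% of the G2/M, 61.9% of the S phase, 41.1% of all and 42.6% of the matched measured promoters. Matches on opposite strands of the E2F letters can overlap, as they do in *Mcm6*. To show this division, the last bases before the start are given for 6 members, each read 5′ to 3′ on the gene's strand, with the CHR core, the CCAAT box and the E2F letters in capitals. Where a match lies on the opposite strand, the box reads ATTGG and the core is printed as its complement, TTCAAA. The E2F match of *Cdk1* lies outside the bases printed. *Cdk1* lies on the minus strand at chr10:69352913-69353032, *Cdc20* on the minus strand at chr4:118437344-118437463, *Kif11* on the plus strand at chr19:37376262-37376381 and *Ube2c* on the plus strand at chr2:164769809-164769928. From the S phase group, *Mcm6* lies on the minus strand at chr1:128359706-128359825 and *Pola1* on the minus strand at chrX:93632156-93632305.
Cdk1: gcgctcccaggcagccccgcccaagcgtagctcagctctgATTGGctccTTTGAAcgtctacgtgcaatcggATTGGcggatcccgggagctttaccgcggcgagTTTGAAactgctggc
Cdc20: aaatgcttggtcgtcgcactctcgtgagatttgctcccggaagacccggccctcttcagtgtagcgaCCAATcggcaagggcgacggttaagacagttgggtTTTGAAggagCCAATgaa
Kif11: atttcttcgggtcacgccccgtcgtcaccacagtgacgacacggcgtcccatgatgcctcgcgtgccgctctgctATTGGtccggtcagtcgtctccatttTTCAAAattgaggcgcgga
Ube2c: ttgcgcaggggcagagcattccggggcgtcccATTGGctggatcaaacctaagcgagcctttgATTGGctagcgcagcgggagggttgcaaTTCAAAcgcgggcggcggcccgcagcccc
Mcm6: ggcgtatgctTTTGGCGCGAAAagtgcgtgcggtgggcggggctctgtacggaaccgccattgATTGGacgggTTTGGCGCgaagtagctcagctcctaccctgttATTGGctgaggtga
Pola1: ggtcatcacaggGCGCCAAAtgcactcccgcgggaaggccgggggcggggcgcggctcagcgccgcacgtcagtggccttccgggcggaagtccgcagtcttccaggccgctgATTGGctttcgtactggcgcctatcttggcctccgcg

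Members with and without the CHR letters were called in the same direction within the G2/M group. In GAL1+ against GAL1- cells, 12 of the 15 members with TTTGAA and 4 of the 6 without it were called lower, where 29.3% of all genes were, with median log2 fold changes of -0.64 and -0.61. *Cdc20*, *Kif11* and *Ube2c*, which all hold the CHR core, were lower in GAL1+ cells by 1.23, 0.87 and 0.64 on the log2 scale, while *Cdk1*, with 2 CHR cores, had a log2 fold change of -0.28 and did not pass.

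G2/M genes were highest in GAL1- and PDGFRA+ cells and lowest in PDGFRA- and GAL1+ cells of the same tumor. The median log2 CPM over the 24 genes in T3, T4 and T5 was 5.88, 5.17 and 5.05 in GAL1- cells and 5.66, 5.20 and 4.85 in PDGFRA+ cells. It was 5.35, 4.60 and 4.38 in GAL1+ cells and 5.47, 4.29 and 3.87 in PDGFRA- cells. Both GAL1- and PDGFRA+ libraries were above both others for 21 of 24 members in T3, for 23 in T4 and for 23 in T5, and for 19 members in all 3 tumors. S phase genes showed this order in all 3 tumors for only 5 of 24 members. Their medians were 4.92, 4.58 and 4.41 in GAL1- cells, 4.94, 4.95 and 4.81 in PDGFRA+ cells, 5.11, 4.54 and 4.91 in PDGFRA- cells, and 5.42, 5.05 and 4.90 in GAL1+ cells. These medians of levels ran against the differences taken gene by gene. In GAL1+ over GAL1- cells, 16 of the 24 S phase estimates were negative and 8 positive. The median differences were -0.06, -0.15 and -0.12 in T3, T4 and T5. Tumors differed as well, since T3 had the highest level in all 4 populations for 24 of 24 G2/M and 20 of 24 S phase members.

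**Figure D1:**
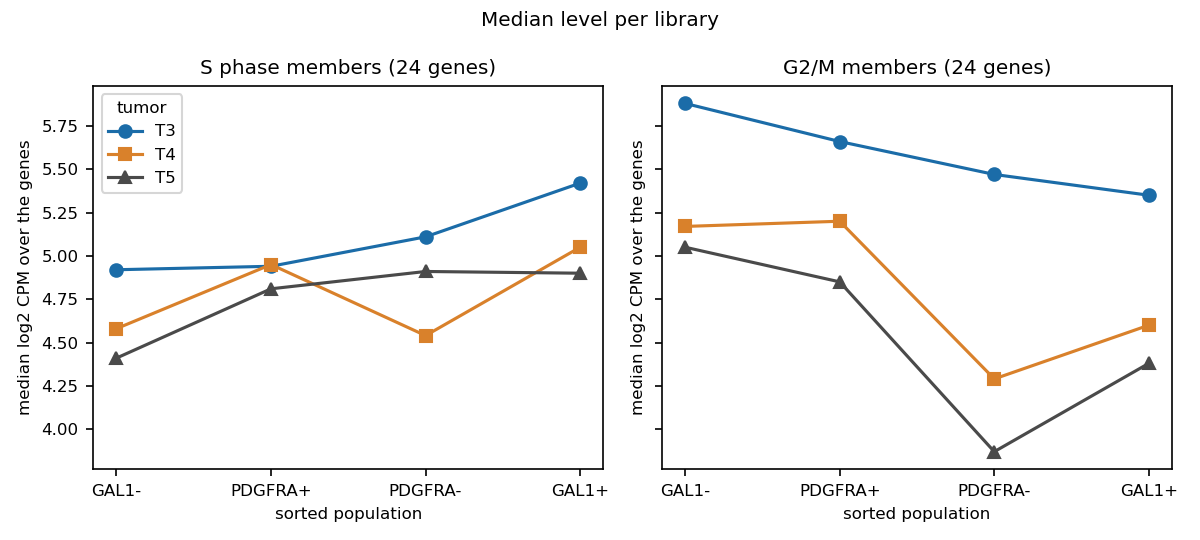
Median log2 CPM (y axis) over the 24 S phase genes (left) and the 24 G2/M genes (right) in each library, by sorted population (x axis), with a line joining the 4 libraries of each tumor. The G2/M medians of T4 and T5 fell from 5.17 and 5.05 in GAL1- cells to 4.29 and 3.87 in PDGFRA- cells, while the S phase medians spanned 4.41 to 5.42, with GAL1+ above PDGFRA+ above GAL1- cells in each tumor and PDGFRA- cells changing place. Gene by gene, 16 of the 24 S phase estimates were lower in GAL1+ than in GAL1- cells.

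**Figure D2:**
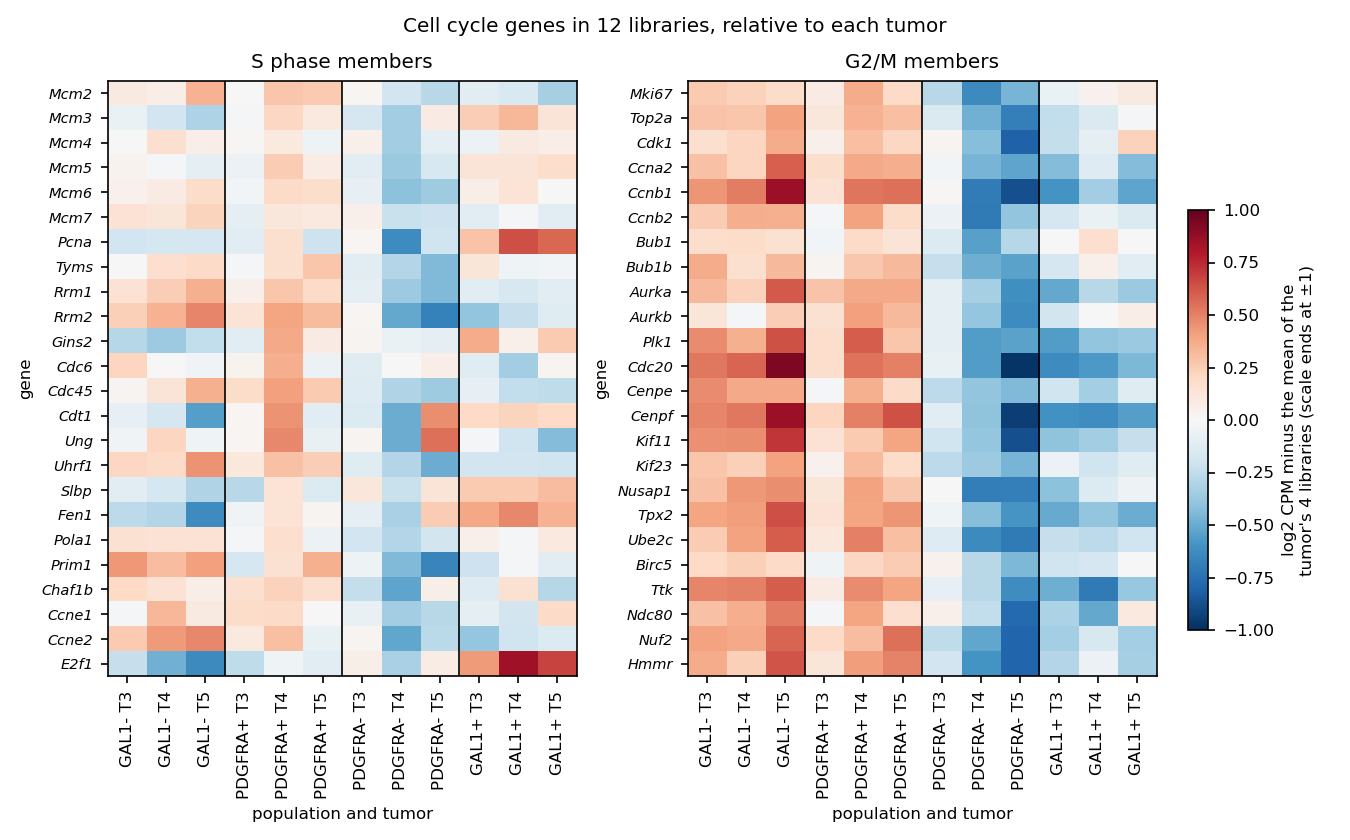
Level of each S phase (left) and G2/M (right) gene in the 12 libraries (x axis) as log2 CPM minus the mean of that tumor's 4 libraries, with red above and blue below that mean and the colour scale ending at ±1. Most G2/M squares are red in GAL1- and PDGFRA+ libraries and blue in PDGFRA- and GAL1+ libraries, and the S phase rows of Pcna, Fen1 and E2f1 are red in GAL1+ cells.

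G2/M genes were lower in GAL1+ than in GAL1- cells. Of the 24 members, 18 were lower in GAL1+ cells and none was higher (limma, adjusted p under 0.05), where 29.3% of all genes were called lower and 28.9% higher. Their median log2 fold change was -0.64, against -0.03 over all genes, and the median within each tumor was -0.66, -0.52 and -0.66. All 24 estimates were negative, 23 of them in each of the 3 tumors. Groups did not overlap for 6 members (*Ccnb1*, *Cdc20*, *Cenpf*, *Kif11*, *Tpx2* and *Ttk*). The share of all genes without overlap was not counted, here or in the comparisons below.

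*Cdc20*, the activator of the anaphase-promoting complex, had a log2 CPM of 5.67, 4.84 and 4.67 in GAL1- cells of T3, T4 and T5 and 4.52, 3.68 and 3.29 in GAL1+ cells. It was at 5.32, 4.80 and 4.24 in PDGFRA+ and 5.07, 3.70 and 2.76 in PDGFRA- cells. Every GAL1+ library was below every GAL1- library, and the PDGFRA- libraries ran from a high value in T3 to the lowest of all 12 libraries in T5. *Cdc20* fell in GAL1+ cells by 1.23 on the log2 scale (SE 0.23, limma adjusted p = 0.00139). *Cenpf*, a kinetochore protein that accumulates in G2, was at 8.20, 7.65 and 7.70 in GAL1- and 7.11, 6.50 and 6.29 in GAL1+ cells, again with no overlap. In PDGFRA+ cells its level was 7.93, 7.63 and 7.48, and in PDGFRA- cells 7.61, 6.72 and 5.90. Its log2 fold change in GAL1+ over GAL1- cells was -1.22 (SE 0.21, limma adjusted p = 0.000946).

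Among the kinases and cyclins that drive mitotic entry, *Ccnb1*, which encodes cyclin B1, had the widest difference. It was at 5.88, 5.01 and 4.94 in GAL1-, 4.84, 4.15 and 3.56 in GAL1+, 5.58, 5.03 and 4.64 in PDGFRA+, and 5.45, 3.80 and 3.21 in PDGFRA- cells. GAL1+ cells were lower in every tumor, by 1.09 on the log2 scale (SE 0.24, limma adjusted p = 0.00344). The mitotic kinases *Plk1* (-0.93) and *Aurka* (-0.78) and the cyclin A gene *Ccna2* (-0.70) also fell in GAL1+ cells. *Cdk1*, the kinase itself, was at 5.78, 5.17 and 5.01 in GAL1- and 5.38, 4.87 and 4.87 in GAL1+ cells, at 5.67, 5.26 and 4.85 in PDGFRA+ and at 5.65, 4.53 and 3.83 in PDGFRA- cells. Those GAL1 libraries overlapped, and the log2 fold change of -0.28 (SE 0.21) did not pass (limma adjusted p = 0.292). *Ccnb2*, with a log2 fold change of -0.45, missed the threshold narrowly (limma adjusted p = 0.0545), and *Aurkb* and *Birc5*, subunits of the chromosomal passenger complex, had values of -0.16 and -0.33.

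Kinetochore and checkpoint genes were lower in GAL1+ cells for 6 of the 7 members. *Ttk*, the kinase that starts the spindle checkpoint, had a log2 fold change of -1.05, and the outer kinetochore genes *Nuf2* and *Ndc80*, partners in a single complex, had -0.73 and -0.63. *Cenpe*, a kinetochore motor, fell by 0.63 and the checkpoint gene *Bub1b* by 0.37 on the log2 scale. *Bub1* was the exception, at -0.11 (limma adjusted p = 0.509). All 5 spindle genes fell in GAL1+ cells: the spindle assembly factor *Tpx2* (-0.95), the bipolar spindle motor *Kif11* (-0.87), *Hmmr* (-0.64), *Nusap1* (-0.60) and the midzone motor *Kif23* (-0.43). The ubiquitin-conjugating enzyme of the anaphase-promoting complex, *Ube2c*, fell by 0.64.

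The usual marker of proliferation was not among the genes called between the GAL1 populations. *Mki67* was at 9.93, 9.27 and 9.05 in GAL1- and 9.60, 9.08 and 8.96 in GAL1+ cells of T3, T4 and T5, and at 9.75, 9.41 and 9.06 in PDGFRA+ and 9.39, 8.40 and 8.40 in PDGFRA- cells. Its GAL1+ libraries lay within the range set by the GAL1- libraries apart from the lowest, and the log2 fold change was -0.20 (95% interval -0.49 to 0.09, limma adjusted p = 0.204). *Top2a*, the topoisomerase that untangles replicated chromosomes, was at 8.92, 8.36 and 8.42 in GAL1- and 8.39, 7.94 and 8.0 in GAL1+ cells, and at 8.75, 8.43 and 8.32 in PDGFRA+ and 8.49, 7.60 and 7.33 in PDGFRA- cells. *Top2a* fell in GAL1+ cells by 0.46 on the log2 scale (SE 0.15, limma adjusted p = 0.0247), with 1 GAL1+ library reaching into the GAL1- range.

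The calls between GAL1+ and GAL1- cells depended on pairing libraries within a tumor. Without the tumor block 2 of the 24 G2/M members and 3 of the 24 S phase members were called, and without the libraries of T5 the G2/M count was 11. Over all genes 10578 calls became 8392 without the block and 8071 without T5. Genes listed as cell type markers moved with this comparison. In the study, *Pdgfra* set apart a group of EGFR+ tumor cells, and *Olig1*, *Olig2* and *Ptprz1* were higher in PDGFRA+ than GAL1+ cells. The oligodendrocyte precursor list holds these genes, so it can also reflect the tumor cells themselves. All 12 pan-leukocyte genes were higher in GAL1+ cells (median log2 fold change 4.49), as were 10 of 10 macrophage and 10 of 10 microglia genes, 11 of 12 endothelial genes and 7 of 9 pericyte and mural genes (1 lower). All 10 oligodendrocyte precursor genes (median -2.89) and 8 of 9 mature oligodendrocyte genes (median -1.30) were lower. The pan-leukocyte genes summed to between 3210 and 4370 CPM in GAL1+ and between 91.4 and 241 CPM in GAL1- cells, none of them at or under 3 reads in any library. The oligodendrocyte precursor genes summed to between 630 and 1970 CPM in GAL1+ and between 5510 and 6700 CPM in GAL1- cells. Neutrophil genes (3 of 6 measured higher), T and NK cell genes (2 higher and 1 lower of 11), astrocyte (4 of 8 lower) and neuron genes (4 of 8 lower) moved less uniformly. The part of the cells behind these markers in the G2/M difference was not tested.

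PDGFRA+ cells had higher estimates than PDGFRA- cells for every G2/M member, and none passed the test. The median log2 fold change was 0.68, against -0.02 over all genes, and within T3, T4 and T5 it was 0.25, 0.82 and 0.97. At an unadjusted p under 0.05, 23 of 24 members were higher, where 6.02% of all genes were. No gene of the 18180 passed at an adjusted p under 0.05 in either direction (0% higher and 0% lower by limma), and none did with voom weights on recovered reads. The 95% intervals of the 24 members ran from -0.04 to 1.47. *Cdc20* had a log2 fold change of 0.94 (SE 0.23, limma adjusted p = 0.236), *Cenpf* of 0.93 (SE 0.21), *Ccnb1* of 0.93 (SE 0.24) and *Mki67* of 0.67 (SE 0.13, limma adjusted p = 0.21). None of these was free of overlap between the 3 PDGFRA+ and 3 PDGFRA- libraries, since T3 differed least, as the levels given above show. The lowest estimates were those of *Birc5* (0.37) and *Bub1* (0.43). Without the PDGFRA- library of T5 the median was 0.53 and no member was called. Mature oligodendrocyte genes moved with this comparison. Their median log2 fold change was -1.86, and all 9 were lower in PDGFRA+ cells in each of the 3 tumors without overlap between groups. Of the 9, 8 had an unadjusted p under 0.05. The shares of all genes lower at that p or without overlap were not counted. The 9 genes summed to between 371 and 482 CPM in PDGFRA+ and between 910 and 1260 CPM in PDGFRA- cells. Oligodendrocyte precursor genes, with *Pdgfra* of the sort among them, had a median of 0.63, with 5 of 10 higher at an unadjusted p under 0.05. Pan-leukocyte genes had -0.91, 1.17 and -1.04 in T3, T4 and T5. The part of the cells behind these markers in the estimates was not tested.

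Between PDGFRA+ and GAL1+ cells, the comparison central to the study, 13 of 24 G2/M members were higher in PDGFRA+ cells and none was lower, where 20.9% of all genes were called higher and 17% lower. Their median log2 fold change was 0.50, against 0.01 over all genes, and 0.38, 0.53 and 0.47 within T3, T4 and T5. The largest were *Cenpf* (1.05, SE 0.21, limma adjusted p = 0.00584), *Cdc20* (0.96), *Ccnb1* (0.90) and *Ttk* (0.84), followed by *Plk1* (0.79), *Tpx2* (0.79), *Aurka* (0.74), *Ccna2* (0.64), *Nuf2* (0.63), *Kif11* (0.60), *Hmmr* (0.57), *Ube2c* (0.53) and *Cenpe* (0.40). *Cenpf* and *Tpx2* did not overlap between groups. *Mki67* (0.19), *Cdk1* (0.22) and *Bub1* (0.05) did not pass. Leaving out T3, T4 or T5 reduced these 13 calls to 4, 4 and 7, and without the tumor block the count was 0. Over all genes 6900 calls became 2110, 4863 and 4267, and 3154 without the block. Centring each library on its own median lowered the median of all genes by 0.16 and left 9 calls. All 12 pan-leukocyte (median -1.57) and 10 of 10 macrophage genes (median -1.79) were lower in PDGFRA+ cells and all 10 oligodendrocyte precursor genes higher (median 2.55), and their part in the result was not tested. This comparison shares its GAL1+ libraries with GAL1+ against GAL1- and its PDGFRA+ libraries with PDGFRA+ against PDGFRA-.

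**Figure D3:**
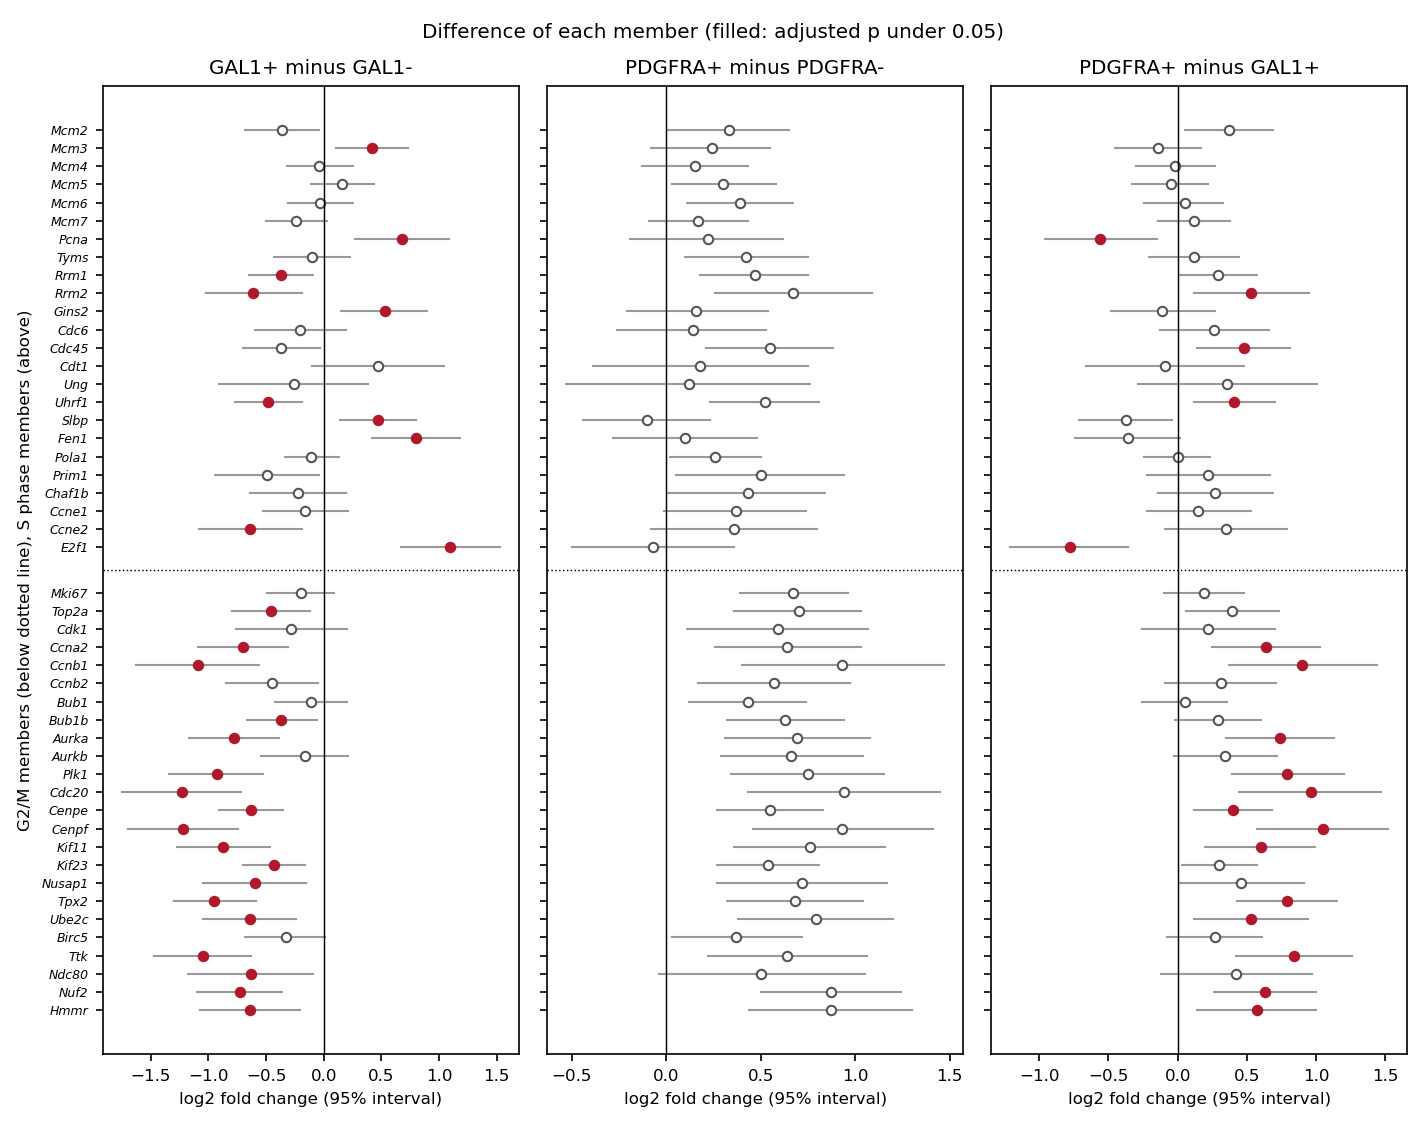
Log2 fold change (x axis) of each S phase (above the dotted line) and G2/M (below it) gene in 3 comparisons of sorted populations, with 95% intervals from limma and filled points for an adjusted p under 0.05. G2/M genes lie left of 0 in GAL1+ minus GAL1- (18 filled) and right of 0 in PDGFRA+ minus GAL1+ cells (13 filled), S phase genes lie on both sides, and no point is filled for PDGFRA+ minus PDGFRA- cells.

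S phase genes were called in both directions between GAL1+ and GAL1- cells. Of 24 members, 6 were higher in GAL1+ cells (*Mcm3*, *Pcna*, *Gins2*, *Slbp*, *Fen1* and *E2f1*), 4 were lower (*Rrm1*, *Rrm2*, *Uhrf1* and *Ccne2*) and 14 did not pass. Both shares were below those of all genes, of which 28.9% were called higher and 29.3% lower. The median log2 fold change was -0.13. Without T3, T4 or T5 in turn, 6, 5 and 2 members were called, and 8095, 8478 and 8071 of all genes.

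The replicative helicase was mixed. *Mcm3* rose in GAL1+ cells by a log2 fold change of 0.42 (SE 0.14, limma adjusted p = 0.0261), while *Mcm4*, *Mcm5*, *Mcm6* and *Mcm7*, subunits of the same hexamer, had values from -0.24 to 0.16 and did not pass. *Mcm2* was at 6.72, 6.08 and 6.12 in GAL1- and 6.53, 5.86 and 5.44 in GAL1+ cells of T3, T4 and T5, and at 6.63, 6.29 and 6.03 in PDGFRA+ and 6.65, 5.82 and 5.49 in PDGFRA- cells. The groups overlapped, and its log2 fold change of -0.36 (SE 0.14) lay just outside the threshold (limma adjusted p = 0.0509). *Mcm5* was at 6.40, 5.68 and 5.72 in GAL1- and 6.50, 5.82 and 5.98 in GAL1+ cells, and at 6.31, 5.95 and 5.88 in PDGFRA+ and 6.26, 5.32 and 5.65 in PDGFRA- cells. Its log2 fold change of 0.16 in GAL1+ over GAL1- cells did not pass (limma adjusted p = 0.269). Of the helicase's loaders and partners, the GINS subunit *Gins2* rose by 0.53, and *Cdc6* (-0.21) and *Cdt1* (0.47) did not pass. *Cdc45*, which joins MCM and GINS in the active helicase, was at 4.28, 3.57 and 3.79 in GAL1-, 4.17, 3.19 and 3.18 in GAL1+, 4.43, 3.85 and 3.70 in PDGFRA+ and 4.12, 3.14 and 3.08 in PDGFRA- cells. Its log2 fold change of -0.37 in GAL1+ over GAL1- cells did not pass (limma adjusted p = 0.0588).

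The clamp and the flap endonuclease of lagging strand synthesis were higher in GAL1+ cells. *Pcna* was at 6.65, 6.38 and 6.62 in GAL1+ and 6.17, 5.56 and 5.88 in GAL1- cells of T3, T4 and T5, and at 6.25, 5.89 and 5.84 in PDGFRA+ and 6.38, 5.10 and 5.85 in PDGFRA- cells. All GAL1+ libraries were above those of the other populations, the lowest (T4) only just above the highest PDGFRA- library (T3). *Pcna* rose by a log2 fold change of 0.68 over GAL1- cells (SE 0.18, limma adjusted p = 0.00973). *Pcna* has pseudogene copies in mouse, and the authors counted reads that map to several places as fractions. *Fen1* was at 5.57, 5.22 and 5.16 in GAL1+ and 4.92, 4.45 and 4.18 in GAL1- cells, and at 5.15, 4.88 and 4.84 in PDGFRA+ and 5.09, 4.42 and 5.07 in PDGFRA- cells. No GAL1+ library was as low as any other, and the log2 fold change over GAL1- cells was 0.80 (SE 0.17, limma adjusted p = 0.00293). The primase gene *Prim1* (-0.49) and the polymerase alpha gene *Pola1* (-0.11) did not pass.

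Both ribonucleotide reductase members were lower in GAL1+ cells. *Rrm2*, the regulated subunit of ribonucleotide reductase, was at 6.26, 5.54 and 5.25 in GAL1- and 5.63, 4.96 and 4.64 in GAL1+ cells, and at 6.16, 5.59 and 5.08 in PDGFRA+ and 6.04, 4.68 and 4.09 in PDGFRA- cells. It was lower in GAL1+ cells by a near-equal amount in each tumor, although the groups overlapped between tumors, and fell by 0.61 on the log2 scale (SE 0.18, limma adjusted p = 0.0178). Its partner *Rrm1* fell by 0.37. The thymidylate synthase gene *Tyms* (-0.10) and the uracil-DNA glycosylase gene *Ung* (-0.26) did not pass, and *Ung* was the member with the fewest reads. For chromatin replication, the histone messenger RNA-binding protein *Slbp* was at 5.28, 5.14 and 5.24 in GAL1+ and 4.91, 4.70 and 4.63 in GAL1- cells, and at 4.74, 5.01 and 4.79 in PDGFRA+ and 5.13, 4.65 and 5.06 in PDGFRA- cells. Its GAL1+ levels were above those of every other library, and it rose over GAL1- cells by a log2 fold change of 0.47 (SE 0.15, limma adjusted p = 0.0212). *Uhrf1*, which maintains DNA methylation at replication, fell by 0.48, and the chromatin assembly gene *Chaf1b* had -0.22 and did not pass.

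Of the factors that start S phase, *E2f1* and the cyclin E genes went different ways. *E2f1*, a transcriptional activator of replication genes, was at 3.61, 4.10 and 3.71 in GAL1+, 2.95, 2.77 and 2.40 in GAL1-, 2.93, 3.21 and 2.93 in PDGFRA+, and 3.24, 2.93 and 3.11 in PDGFRA- cells of T3, T4 and T5. All GAL1+ libraries were above all 9 others. *E2f1* rose over GAL1- cells by a log2 fold change of 1.10 (SE 0.19, limma adjusted p = 0.000909), the largest positive value among the 48 members. *Ccne2*, encoding cyclin E2, was at 3.65, 2.85 and 2.83 in GAL1- and 3.0, 2.22 and 2.21 in GAL1+ cells, and at 3.49, 2.72 and 2.27 in PDGFRA+ and 3.42, 1.90 and 2.08 in PDGFRA- cells. It was lower in GAL1+ cells of each tumor, with overlap between tumors, and fell by 0.64 (SE 0.20, limma adjusted p = 0.0195). *Ccne1*, encoding cyclin E1, was at 4.09, 3.77 and 3.38 in GAL1- and 4.02, 3.25 and 3.48 in GAL1+ cells, and at 4.29, 3.63 and 3.29 in PDGFRA+ and 4.03, 3.09 and 3.01 in PDGFRA- cells. Its libraries overlapped in every pairing of populations and its log2 fold change of -0.16 did not pass (limma adjusted p = 0.431).

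**Figure D4:**
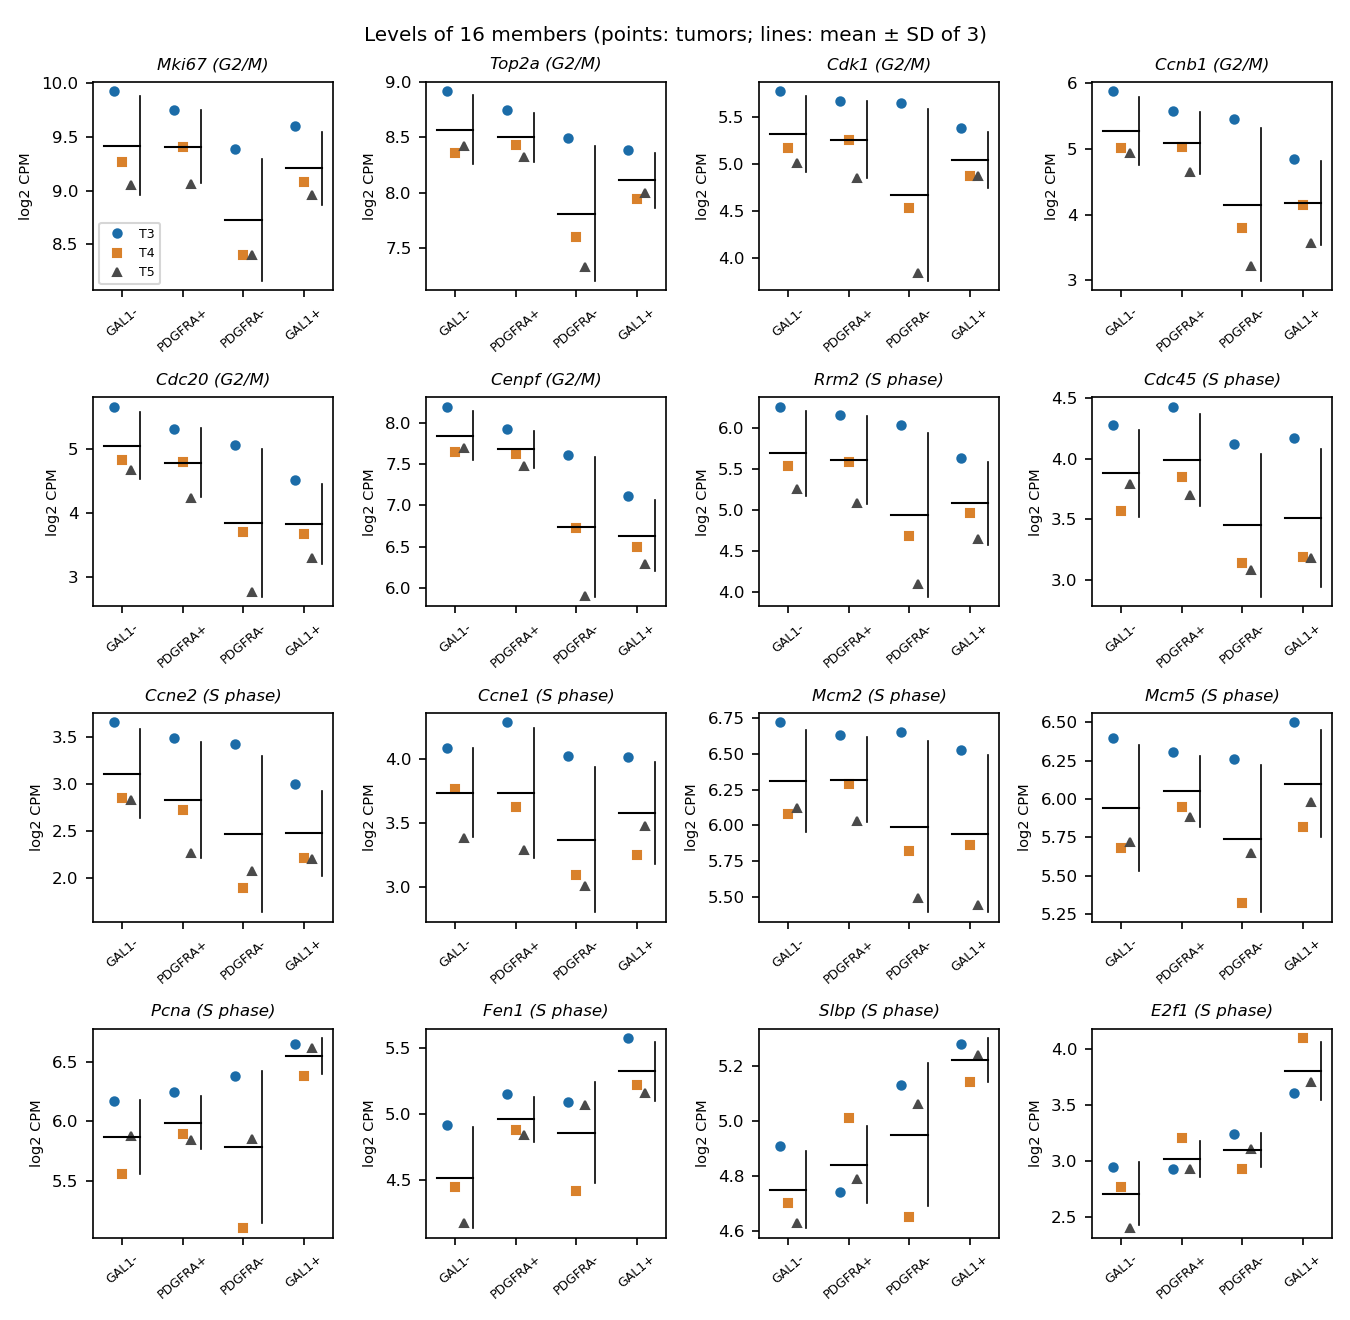
Log2 CPM (y axis, its range set per gene) of 16 members in each sorted population (x axis), with a point per tumor, horizontal lines for the mean and vertical lines for ± SD of 3 libraries. E2f1, Fen1 and Slbp are highest in GAL1+ cells, whose E2f1 libraries lie between 3.61 and 4.10, and Cdc20, Cenpf and Ccnb1 are lowest in GAL1+ and PDGFRA- cells.

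Between PDGFRA+ and PDGFRA- cells no S phase member passed at an adjusted p under 0.05. Estimates were positive for 22 of 24 members with a median log2 fold change of 0.28 and 95% intervals from -0.53 to 1.09, and 11 members were higher at an unadjusted p under 0.05, where 6.02% of all genes were. Without the PDGFRA- library of T5 the median was 0.33 and no member was called. *Rrm2* (0.67), *Cdc45* (0.55) and *Uhrf1* (0.52) had the largest values and *Slbp* (-0.10) and *E2f1* (-0.07) the only negative ones. PDGFRA+ cells had more *Rrm2*, *Cdc45* and *Uhrf1* than GAL1+ cells, by log2 fold changes of 0.53, 0.48 and 0.41, and less *Pcna* (-0.56) and *E2f1* (-0.78, SE 0.19, limma adjusted p = 0.012). The other 19 did not pass, among them *Slbp* (-0.37) and *Fen1* (-0.36), whose groups did not overlap. The 3 higher and 2 lower were smaller shares of the 24 than the 20.9% and 17% of all genes called. The split depended on the scaling and became 0 higher and 4 lower with each library centred on its median and 2 and 1 with quantile normalization. Without T3, T4 or T5 in turn, 0, 1 and 0 S phase members were called, and 2110, 4863 and 4267 of all genes.

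The populations without the sorted marker also differed. PDGFRA- cells had lower levels than GAL1- cells of 20 of 24 G2/M members (median log2 fold change -0.77) and of 6 of 24 S phase members (*Prim1*, *Rrm2*, *Ccne2*, *Uhrf1*, *Rrm1* and *Pola1*, median of the group -0.31), where 6.88% of all genes were called lower and 16.2% higher. *Cdc20* (-1.22), *Ccnb1* (-1.12), *Cenpf* (-1.11) and *Kif11* (-1.03) led, and *Mki67* was lower by 0.68 on the log2 scale (SE 0.13, limma adjusted p = 0.00554). By tumor, the G2/M median was -0.43 (T3), -0.81 (T4) and -1.18 (T5). The counts fell to 15 and 1 without the PDGFRA- library of T5, to 2 and 0 without all libraries of T5, and to 0 and 0 without the tumor block. Over all genes 4200 calls became 2009, 920 and 1444 in the same order. Scaling by the library median or by quantiles gave 24 G2/M calls and 11 or 10 S phase calls. Genes listed as cell type markers moved as well. Higher in PDGFRA- cells were 12 of 12 pan-leukocyte (median 3.22), 9 of 10 macrophage (4.24), 7 of 10 microglia (2.64), 10 of 12 endothelial (1.78), 7 of 9 pericyte and mural (2.03) and 3 of 9 mature oligodendrocyte genes (1.09), while 5 of 10 oligodendrocyte precursor genes were lower (-1.03). Their part was not tested. The comparison shares its libraries with those within the PDGFRA and GAL1 sorts. Within the PDGFRA- cells, the library of T4 had the least pan-leukocyte RNA (783 CPM) and a G2/M sum of 1140 CPM, against 2250 CPM in T3 with 1270 CPM and 934 CPM in T5 with 3400 CPM. These are single libraries of different tumors, and T3 had the highest level of all 24 G2/M members in all 4 populations. Tumor and pan-leukocyte RNA therefore cannot be told apart here.

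PDGFRA+ and GAL1- cells, the populations with the most G2/M transcripts, had no member that passed between them. The median log2 fold change was -0.12 for G2/M and 0.03 for S phase genes, the 95% intervals ran from -0.79 to 0.56 and from -0.73 to 0.96, while limma called 8.26% of all genes as higher in PDGFRA+ cells and 0.011% as lower. At an unadjusted p under 0.05, 2 S phase members were higher and no G2/M member differed. The share of all genes at that p was not counted for this comparison. No member was called without the tumor block or with voom weights. *Mki67* had a log2 fold change of -0.01 (95% interval -0.30 to 0.28). In this same comparison all 12 pan-leukocyte genes were higher in PDGFRA+ cells with a median log2 fold change of 2.85. At the other end, 3 of the 48 members were called between PDGFRA- and GAL1+ cells, a share close to that of all genes called lower. They were *Pcna* (-0.77, SE 0.18, limma adjusted p = 0.0213), *E2f1* (-0.71) and *Mki67* (-0.48, SE 0.13, limma adjusted p = 0.0309), all lower in PDGFRA- cells, where 6.91% of all genes were called lower and 13.2% higher. None of the 48 members was called without the tumor block, without T3 or without T4, and without the PDGFRA- library of T5 the S phase calls went from 2 to 5 and the G2/M count stayed at 1. Calls over all genes went from 3652 to 725, 788 and 0, and to 5837 without that library. The loss without T4 was therefore shared by every gene. All 9 mature oligodendrocyte genes (median 2.46) and 9 of 10 oligodendrocyte precursor genes (1.74) were higher in PDGFRA- cells, and 3 of 12 pan-leukocyte genes lower.

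The PDGFRA difference (PDGFRA+ minus PDGFRA-) was also subtracted from the GAL1 difference (GAL1+ minus GAL1-) and the result tested. The gene *Pdgfra* itself ran opposite ways, with log2 fold changes of -2.97 in the GAL1 and 1.60 in the PDGFRA sort. A large value can therefore arise from opposite signs alone, without either sort separating the transcripts more. The G2/M medians of the GAL1 and PDGFRA sorts, -0.64 and 0.68, were near-equal in size. All 24 G2/M members had a negative value that passed (median -1.33), where 24.9% of all genes were called lower and 26.2% higher. *Cdc20* (-2.17, SE 0.32, limma adjusted p = 0.000631), *Cenpf* (-2.15) and *Ccnb1* (-2.03) had the largest and *Bub1* (-0.54, limma adjusted p = 0.0421) the smallest. Of the S phase members, 7 were lower (*Rrm2*, *Uhrf1*, *Ccne2*, *Prim1*, *Cdc45*, *Rrm1* and *Mcm2*) and 3 higher (*E2f1*, *Fen1* and *Slbp*), near the share of all genes for the lower and under it for the higher. Without the tumor block 7 G2/M members and 1 S phase member were called, without T5 the counts were 19 and 3, and without the PDGFRA- library of T5 alone they were 22 and 9. Over all genes 9290 calls became 6692, 5757 and 8142 in the same order. All 12 pan-leukocyte (median 4.85) and 10 of 10 macrophage genes (5.98) were higher in this difference too, and all 10 oligodendrocyte precursor genes (-3.33) were lower, as the G2/M members were. Their part in it was not tested.

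Further G2/M genes, listed by function, were called mostly in the directions of the G2/M members. Further S phase genes were called lower more often than higher in GAL1+ than GAL1- cells, unlike the S phase members. These lists were chosen with earlier results known and measured in the same libraries, so they are not independent of the members. For GAL1+ against GAL1- cells 29.3% of all genes were called lower and 28.9% higher, and for PDGFRA+ against GAL1+ cells 20.9% higher and 17% lower. Of 60 further G2/M genes, 42 were lower and 1 higher in GAL1+ than GAL1- cells (median log2 fold change -0.66), 35 were higher and none lower in PDGFRA+ than GAL1+ cells (median 0.53), and none passed between PDGFRA+ and PDGFRA- cells (median 0.61, all 60 positive). *Kif18a*, a mitotic kinesin, was lower in GAL1+ than GAL1- cells by 1.60 and *Aspm*, a spindle pole protein, by 1.58 on the log2 scale, and the single riser was *Cks1b* (0.68), a CDK-binding subunit. *Kif18b* (1.28) and *Aspm* (1.25) were the most raised in PDGFRA+ over GAL1+ cells. Of 46 further S phase genes, 20 were lower and 5 higher in GAL1+ than GAL1- cells (median -0.33), and 11 were higher and 2 lower in PDGFRA+ than GAL1+ cells (median 0.25). The 5 and the 2 were smaller shares than those of all genes, the 20 a larger share and the 11 a share near it. *Cdc7*, the kinase that fires origins, fell in GAL1+ cells by 1.14 and the exonuclease gene *Exo1* by 0.95, whereas *Orc1*, which marks origins, rose by 0.96 and the nuclease gene *Dna2* by 0.79. *Cdc7* (0.84) and *Exo1* (0.79) were higher, and *Orc1* (-0.63) and *Blm* (-0.51), a DNA helicase, lower in PDGFRA+ than GAL1+ cells.

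Among 33 regulators of the cycle, 14 were lower and 7 higher in GAL1+ than GAL1- cells, where 29.3% and 28.9% of all genes were called. In PDGFRA+ against GAL1+ cells 10 were higher and 3 lower, where 20.9% and 17% of all genes were called. The 7 and the 3 were smaller shares than those of all genes. *Cdk6*, a G1 kinase, rose most in GAL1+ over GAL1- cells, by a log2 fold change of 2.42 (SE 0.14, limma adjusted p = 3.9e-05), and was lower in PDGFRA+ than GAL1+ cells (-1.32). *Cdkn1a*, the CDK inhibitor p21, was at 7.67, 7.83 and 7.92 in GAL1+ and 6.09, 6.21 and 6.03 in GAL1- cells of T3, T4 and T5, and at 6.45, 7.05 and 7.06 in PDGFRA+ and 7.02, 6.74 and 7.64 in PDGFRA- cells. It was highest in GAL1+ cells of every tumor, without overlap with GAL1- cells, and rose by 1.70 (SE 0.20, limma adjusted p = 0.000111). *Cdkn1b*, the inhibitor p27, had 0.31 and did not pass (limma adjusted p = 0.0826).

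The D-type cyclins moved the other way. *Ccnd1*, encoding cyclin D1, was at 9.96, 9.88 and 9.54 in GAL1- and 8.58, 8.41 and 7.70 in GAL1+ cells, and at 9.75, 9.58 and 9.10 in PDGFRA+ and 9.64, 9.62 and 7.90 in PDGFRA- cells. GAL1+ and GAL1- libraries did not overlap, and *Ccnd1* fell by 1.56 (SE 0.24, limma adjusted p = 0.000492). *Ccnd2* fell by 0.82, and was not called between PDGFRA+ and GAL1+ cells (0.52), where *Ccnd1* was higher (1.25). *Foxm1*, a transcription factor of CHR-bearing mitotic genes, was at 6.68, 6.09 and 6.17 in GAL1- and 5.81, 5.13 and 4.80 in GAL1+ cells, and at 6.41, 6.12 and 5.96 in PDGFRA+ and 6.07, 5.57 and 4.77 in PDGFRA- cells. *Foxm1* fell in GAL1+ against GAL1- cells by 1.07 (SE 0.18, limma adjusted p = 0.000721) and *Mybl2*, encoding B-MYB, by 0.44, and both were higher in PDGFRA+ than GAL1+ cells (0.92 and 0.55). *E2f7*, an E2F repressor, fell by 1.41 in GAL1+ against GAL1- cells and was higher by 1.28 in PDGFRA+ than GAL1+ cells. None of the 33 regulators passed between PDGFRA+ and PDGFRA- cells, where *Foxm1* had 0.69 and *Mybl2* 0.58.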

How the data were processed

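Sorted EGFR+ cells of 3 mouse GBMs had been profiled by bulk RNAseq (12 libraries, 3 per population). The authors cleaned reads with fastp (Phred at least 15) and mapped them to mm39 with STAR, using its option of a repeated alignment pass. Exonic reads were tallied by featureCounts, in which a read mapping to several places was split into fractions. Genes entered the table if their CPM exceeded 1 in 3 or more samples. After TMM normalization and voom, the authors deposited log2 CPM for 18180 genes. An offset of 0.5 reads was assumed here and is not in the formula that the study gives. To gauge depth, the smallest entry in a library was treated as 0 reads, and between 41.3% and 59.2% of values then came out whole (within 0.01 reads), so no count test was run. Libraries were amplified, so reads are not independent molecules.

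All 12 libraries entered a single limma fit (limma 3.58.1, R 4.3.3) with population and tumor as terms, and differences were tested by the moderated test with a mean-variance trend (both directions, 6 residual and 3.49 prior degrees of freedom). A gene was called when its p, adjusted by Benjamini and Hochberg's method across the 18180 genes, was under 0.05. Libraries were paired by the tumor numbers in the labels. With population means removed, libraries of a shared tumor had a mean correlation across genes of 0.486 (18 pairs, from 0.14 to 0.662). Whether tumors were single animals is not stated. The p-values rest on the spread left after the population and tumor terms, pooled over the 12 libraries of these 3 tumors. No pair of libraries was identical (highest r 0.9764). The fit was tested on simulated data.

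The members, the further lists and the tests were chosen with earlier results of these data known. Levels are given per library for *Mki67*, *Top2a*, *Pcna*, *Mcm2*, *Mcm5*, *Cdk1*, *Ccnb1* and *Ccne1* and, in each of the 3 main comparisons and each phase, for the 2 largest positive and the 2 largest negative log2 fold changes. From the further lists the 2 largest in each direction among called genes and *Cdkn1a*, *Cdkn1b*, *Ccnd1*, *Ccnd2*, *Foxm1* and *Mybl2* are named. Other members are named with their log2 fold change. Alternatives were no tumor block, voom weights estimated from the recovered reads, 1 CPM added before taking logs, a filter at a log2 CPM above 1 in 3 samples (16183 genes), scaling to the library median, quantile normalization, and leaving out each tumor or the PDGFRA- library of T5. Promoters are RefSeq sequences of GRCm38.p6, not the build of the files, and were matched by symbol. Figures were drawn with matplotlib 3.10.9. One further allele of the tumor model is not reported here.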

Additional observations from a re-analysis of the deposited data

Results flagged for a closer look

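The GAL1 and PDGFRA sorts gave differences that were themselves different by limma's interaction test (adjusted p under 0.05 over all genes) for 24 G2/M members and 10 S phase members. Of all genes, 24.9% were called lower and 26.2% higher in this test. The G2/M members had a median log2 fold change of -0.64 in GAL1+ over GAL1- cells and 0.68 in PDGFRA+ over PDGFRA- cells, with lower values for the GAL1 sort in all 24. These medians were near-equal in size and opposite in sign, and *Pdgfra* itself had opposite signs (-2.97 and 1.60). Of the S phase members, 7 had lower and 3 higher values for the GAL1 sort, near the share of all genes for the lower and under it for the higher. Without the PDGFRA- library of T5 the counts were 22 and 9.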

How the results depend on the processing

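The members had 109 calls over the 6 comparisons and the difference between the sorts, and none of these changed direction under the alternatives run. Of the 109, 95 were lost without the tumor block, 11 with centring on the library median, 10 with quantile normalization, 34, 50 and 65 without T3, T4 and T5, 14 without the PDGFRA- library of T5, and none with voom weights, the pseudocount or the filter. Without the replicate block, that is the pairing by tumor, the calls in S phase and G2/M members were 3 and 2 for GAL1+ against GAL1- cells, 1 and 0 for PDGFRA+ against GAL1+, 0 and 0 for PDGFRA- against GAL1-, 0 and 0 for PDGFRA- against GAL1+, and 1 and 7 for the difference between the sorts. Scaling moved the median of all genes by over 0.1 for PDGFRA+ against GAL1+ (-0.16, centred), PDGFRA- against GAL1- (-0.14, quantile), PDGFRA+ against GAL1- (-0.11 and -0.13) and PDGFRA- against GAL1+ (-0.14, centred). S phase calls became 3 with quantile normalization for PDGFRA+ against GAL1+, 11 (centred) or 10 (quantile) for PDGFRA- against GAL1-, and 8 (centred) for PDGFRA- against GAL1+, whose G2/M calls became 4 (centred) or 0 (quantile). Without the PDGFRA- library of T5, S phase calls were 13 for GAL1+ against GAL1-, 1 for PDGFRA- against GAL1- and 5 for PDGFRA- against GAL1+ cells. The causes were not tested. Calls over all genes also fell, in every comparison that had any, when the tumor block or a tumor was dropped. Leaving out a tumor gave, for S phase and G2/M members, 2 to 6 and 11 to 14 calls for GAL1+ against GAL1-, 0 to 1 and 4 to 7 for PDGFRA+ against GAL1+, 0 to 4 and 2 to 17 for PDGFRA- against GAL1-, 0 to 2 and 0 to 0 for PDGFRA- against GAL1+, and 3 to 8 and 18 to 23 for the difference between the sorts. PDGFRA+ against PDGFRA- and PDGFRA+ against GAL1- gave 0 calls in the members under each alternative. Among members that were not called, 6 S phase genes changed sign under some alternative for PDGFRA+ against PDGFRA-, 3 for GAL1+ against GAL1- and 9 for PDGFRA+ against GAL1+ cells, with 1 G2/M gene in the last. The member with the fewest reads had 28 in its lowest library. Depth differed between populations. GAL1- libraries had 21728280 to 24117541 recovered reads, the most in each tumor, and PDGFRA- libraries 9851175 to 16516049, the fewest in each tumor. The part of depth in the results was not tested.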
